A study of Homo sapiens with 4 samples.

Results

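The genes examined here encode the proteins that form blood clots, hold clotting in check and dissolve clots. They were 34 genes chosen by function and read through probe sets that the platform annotation assigns to that gene alone. All 34 were measured, by 64 of the 54675 probe sets, and they stand among 19775 genes on the arrays. By role they are 15 clotting factors and contact-phase proteins, 2 enzymes of the vitamin K cycle, 10 inhibitors of clotting and 7 genes of fibrinolysis.

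Hepatocytes make most plasma clotting proteins, together with antithrombin, protein C and plasminogen. Clotting runs as a cascade in which one serine protease cuts and activates the next until thrombin turns fibrinogen into fibrin. Several of these proteases need a vitamin K-dependent carboxylation, serpins and tissue factor pathway inhibitor stop them, and plasmin, released from plasminogen by its activators, digests the fibrin.

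RNA came from HepG2 cells, an established human hepatoma line that secretes many of these plasma proteins. All cells grew in high-glucose medium (25 mM) with 10% serum, received siRNA by lipid transfection at about 50% confluence and were harvested after 4 days. Control siRNA targeted GL3 and these cells gave 2 arrays. Knockdown siRNA targeted LSD1 (LSD1-KD), the histone demethylase encoded by KDM1A, and gave 2 arrays, the first with siRNA-1 and the other with siRNA-2. No array shares its siRNA with another knockdown array, and the labels name no separate cultures within a group, so p-values measure only the spread between these arrays.

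Values are log2 RMA values, deposited with a median of 0 over the 4 arrays of each probe set. Differences between arrays can therefore be read and levels cannot, and the middle values of a probe set mirror each other around 0. KDM1A, the check of the labels, was at 1.23 and 1.17 in control cells, at -1.55 with siRNA-1 and at -1.17 with siRNA-2, a difference of -2.56 ± 0.16 (limma adjusted p = 0.0862, and 0.0152 to 0.999 over the alternatives). All 10 hepatocyte and hepatoma markers fell in the brightest class (8 or above on the RMA scale, inferred from how finely the values are spaced). Below 4 were 4 of 7 endothelial, 3 of 5 macrophage and leukocyte, 2 of 7 fibroblast and stellate and 1 of 6 platelet markers. Of all 19775 genes 7361 were in the brightest class and 5311 were below 4 or had no class. CD14, DCN, ACTA2, GP1BA and ITGB3, from the lists of other cell types, were in the brightest class as well. In bulk RNA, fewer cells of a type and less RNA per cell cannot be told apart. Hybridization spike-ins, which are added in fixed amounts, were at -0.69 and -0.61 in the control group and at 0.61 and 0.65 after knockdown. The gap between 5′ and 3′ probe sets of a gene is a sign of RNA integrity, but in centred values only its change between arrays can be read. For ACTB the centred gap was 0.34 and 0.23 in the control group and -0.26 and -0.38 after knockdown, a change of -0.61. For GAPDH the change was -0.18. The part of these array differences in the results was not tested.

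Most of the clotting genes were higher on the knockdown arrays. Of the 34 genes, 21 (61.8%) lay above both controls with each siRNA, 7 (20.6%) lay below both and 6 did neither. Over all genes the shares were 23.7% above and 25.4% below, and over genes that were not dim 26.1% and 27.5%, against 65.4% and 23.1% of the 26 members that were not dim. The median difference between knockdown and control was 0.34 over the members (siRNA-1 alone 0.18, siRNA-2 alone 0.29) and -0.00 over all genes. Without probe sets with a letter suffix only 26 members were left, with a median of 0.14. The median of the members was 0.15 over every probe set and 0.18 without the siRNA-2 array. Without that array 21 members lay above the controls and 11 below, against 40.4% and 39.9% of all genes. The 10 hepatocyte and hepatoma markers had a median difference of 0.34 as well (siRNA-1 alone 0.20, siRNA-2 alone 0.42), with 8 (80%) above both controls. No member passed limma's test over all genes (adjusted p from 0.104 for KNG1 to 0.946 for F9), a test passed by 1 gene (0.00506% of all). At an unadjusted p under 0.05 there were 17 members (50%), against 14.7% of all genes.

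**Figure D1:**
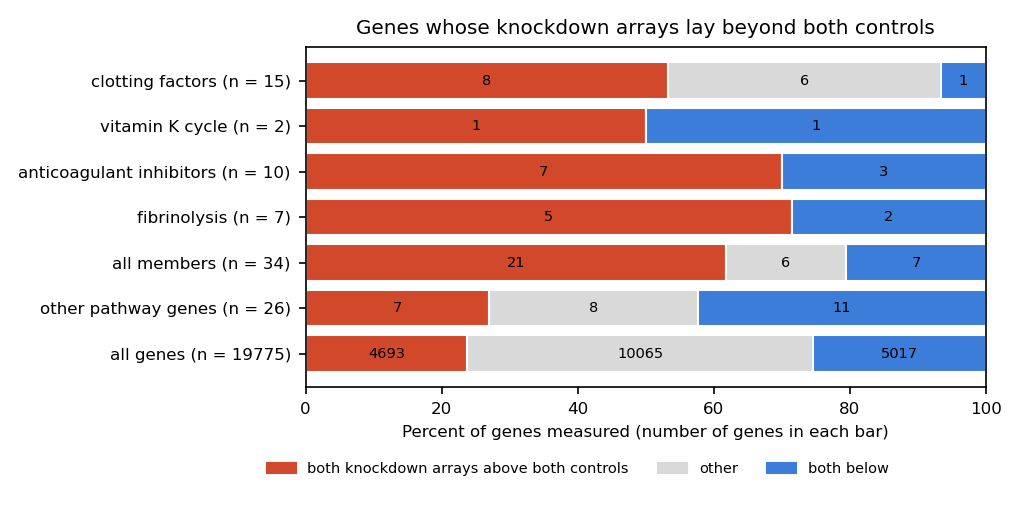
Horizontal bars give the percent of measured genes in each list whose 2 knockdown arrays both lay above both control arrays, both below, or neither, with the number of genes written in each bar. Among the members 21 were above, 7 below and 6 neither, while all 19775 genes divided into 4693 above and 5017 below.

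**Figure D2:**
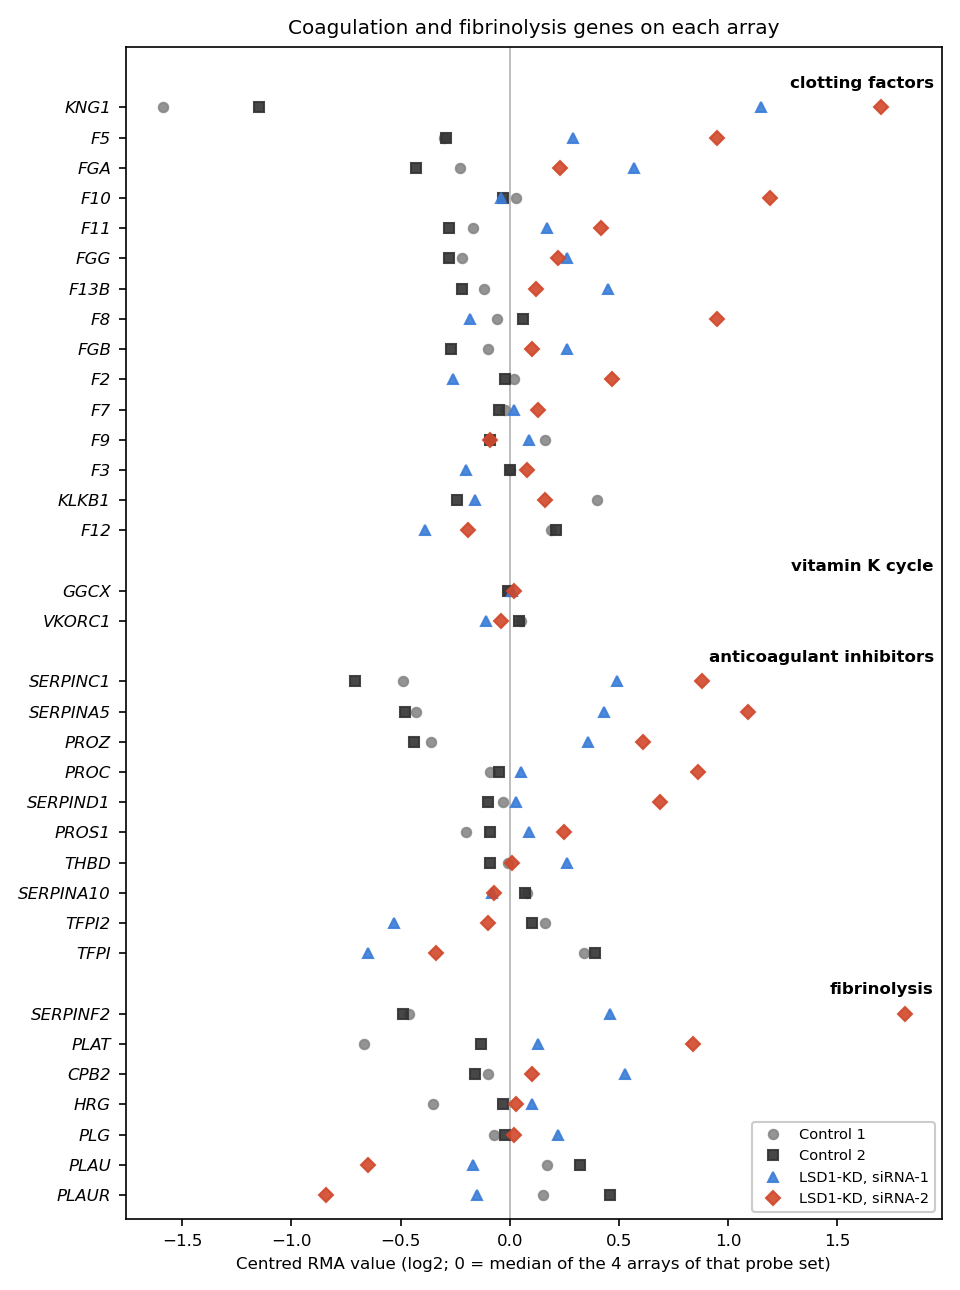
Each row is a gene and each point an array, placed at its centred RMA value (log2) on the horizontal axis; circles and squares are the controls, triangles siRNA-1 and diamonds siRNA-2. KNG1 has the widest gap between controls and knockdown arrays, and TFPI, PLAU and PLAUR run the opposite way.

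Among the clotting factors, KNG1 stood out. It encodes kininogen, the contact-phase cofactor from which plasma kallikrein releases bradykinin. It read -1.59 and -1.15 on the controls against 1.15 (siRNA-1) and 1.70 (siRNA-2). The groups were well apart, with a difference of 2.80 ± 0.26 (SE of the limma fit, n = 2 arrays per group), a 6.94-fold higher value (limma adjusted p = 0.104). A second, dimmer KNG1 probe set differed by 2.21, and another, also dim, by 0.39. KNG1 was one of 2 members (5.88%) at least 2-fold higher with each siRNA, the other being SERPINC1; 0.673% of all genes were, and 0.238% were at least 2-fold lower, among them 0 members.

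F5 encodes factor V, the cofactor with which factor Xa makes thrombin. It read -0.30 and -0.29 on the controls, 0.29 with siRNA-1 and 0.95 with siRNA-2, a difference of 0.91 ± 0.24 (limma adjusted p = 0.265). All 3 of its probe sets gave higher values on both knockdown arrays, with differences of 0.91, 0.80 and 1.37. F11, the zymogen of factor XIa, which activates factor IX, read -0.17 and -0.28 on the controls against 0.17 and 0.42, a difference of 0.52 ± 0.14 (limma adjusted p = 0.262). Its other 3 probe sets, of which 2 were dim and 1 had no brightness class, differed by 0.19, 0.10 and -0.01.

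The 3 fibrinogen genes, FGA, FGB and FGG, encode the chains of the hexamer that thrombin turns into fibrin, and they lie next to each other in RefSeq's gene order. FGA read -0.23 and -0.43 on the controls, 0.57 with siRNA-1 and 0.23 with siRNA-2, a difference of 0.73 ± 0.16 (limma adjusted p = 0.239). FGB read -0.10 and -0.27 against 0.26 and 0.10, a difference of 0.37 ± 0.12. FGG read -0.22 and -0.28 against 0.26 and 0.22, a difference of 0.48 ± 0.10. All 3 were higher on both knockdown arrays, and each had the larger value with siRNA-1. The second FGB probe set overlapped between groups (0.24 and -0.11 on the controls against 0.11 and -0.12 after knockdown). A further FGA probe set split by siRNA, with siRNA-1 differing from the control mean by 0.88 and siRNA-2 by -0.57, and another differed by -0.00.

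Some clotting factors separated the siRNAs. F10, the factor X gene, read 0.03 and -0.03 on the controls and -0.04 with siRNA-1, but 1.19 with siRNA-2. F8, the cofactor gene mutated in haemophilia A, here read by a dim probe set, gave -0.06 and 0.06, then -0.18 and 0.95. F2, the prothrombin gene, gave 0.02 and -0.02, then -0.26 and 0.47. In these 3 genes the siRNA-1 array lay at or below the controls and the siRNA-2 array above them. In a limma model with the siRNAs as separate groups, the siRNA-2 minus siRNA-1 difference was 1.24 ± 0.08 for F10 (adjusted p = 0.0416), 1.13 ± 0.10 for F8 (adjusted p = 0.0422) and 0.73 ± 0.08 for F2 (adjusted p = 0.047). That model takes its spread from the 2 controls and assumes that a lone knockdown array varies like them. The siRNA-2 array stood apart in its spread over all probe sets, with an SD of 0.384 against 0.154 to 0.197 on the other arrays, and the part of this in the siRNA-2 calls was not tested.

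F12 was the 1 clotting factor below both controls with each siRNA. It encodes factor XII, the protease that starts contact activation, and read 0.19 and 0.21 on the controls against -0.39 and -0.19, a difference of -0.48 ± 0.12 (limma adjusted p = 0.255). Its second probe set, a dim one, differed by -0.01. F13B, the carrier subunit of the fibrin cross-linking enzyme, was higher on both knockdown arrays by 0.46, on a dim probe set. F3, the tissue factor that starts clotting (-0.06), F9, the factor IX gene (-0.03), and KLKB1, the plasma prekallikrein gene (-0.08), overlapped with the controls or split by siRNA; F9 and KLKB1 were read by dim probe sets.

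F7 encodes factor VII, the partner of tissue factor, and its answer depended on the probe set. The probe set used by the rule, which prefers identifiers without a letter suffix, differed by 0.10 (-0.02 and -0.05 on the controls against 0.02 and 0.13 after knockdown). The other one, of the same brightness class, read -0.57 and -0.56 on the controls, 0.56 with siRNA-1 and 1.48 with siRNA-2, a difference of 1.58. The groups nearly touched on the first probe set and were far apart on the second. Which of them reads the F7 messenger RNA was not tested.

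Over the 15 clotting factors, 8 (53.3%) were above both controls with each siRNA, 1 (6.67%) below and 6 neither. Of all genes 23.7% were above and 25.4% below. The median difference was 0.39, but 0.06 without the siRNA-2 array and 0.47 without the siRNA-1 array. When probe sets with a letter suffix were left out, 13 clotting factors remained, with a median of 0.10.

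Some of the genes are neighbours in RefSeq's order of protein-coding genes. HRG, which encodes a histidine-rich plasma protein that binds plasminogen and heparin, lies next to KNG1 and differed by 0.26 ± 0.15 on a dim probe set, with values of -0.35 and -0.03 on the controls against 0.10 and 0.03 after knockdown. KLKB1 lies next to F11, and F7 next to F10.

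The bases before the gene starts are shown for the fibrinogen genes, which lie side by side and were all higher, for KNG1 with its neighbour HRG, and for PROZ, the 1 member with a match to the HNF4 motif. Sequences are from RefSeq on GRCh38.p14, which holds a promoter for 30 of the 34 members, and give the 250 bases before the start, 5′ to 3′ on the gene's strand. Capitals mark matches on either strand to the TATA box (TATAAA), the core of the HNF1 motif (GTTAAT), an HNF4 motif (CAAAGTCCA), a C/EBP motif (TTGCNNAA) and an IL6 response motif (CTGGGAA).
FGA (chr4:154590743-154590992, minus strand): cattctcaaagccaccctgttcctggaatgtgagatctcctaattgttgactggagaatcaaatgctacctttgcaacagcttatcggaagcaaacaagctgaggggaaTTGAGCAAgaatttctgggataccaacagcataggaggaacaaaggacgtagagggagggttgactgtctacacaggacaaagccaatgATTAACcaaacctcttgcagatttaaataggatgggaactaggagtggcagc
FGB (chr4:154562730-154562979, plus strand): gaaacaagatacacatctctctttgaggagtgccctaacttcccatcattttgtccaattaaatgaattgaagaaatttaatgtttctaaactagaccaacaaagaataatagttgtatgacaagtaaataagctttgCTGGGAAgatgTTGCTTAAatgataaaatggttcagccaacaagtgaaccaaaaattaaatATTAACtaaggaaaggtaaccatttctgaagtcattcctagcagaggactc
FGG (chr4:154612657-154612906, minus strand): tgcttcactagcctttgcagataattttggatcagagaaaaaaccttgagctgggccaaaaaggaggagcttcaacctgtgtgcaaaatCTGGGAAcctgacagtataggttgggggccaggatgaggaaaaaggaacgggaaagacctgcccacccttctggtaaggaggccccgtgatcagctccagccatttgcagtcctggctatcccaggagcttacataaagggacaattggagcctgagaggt
KNG1 (chr3:186717109-186717358, plus strand): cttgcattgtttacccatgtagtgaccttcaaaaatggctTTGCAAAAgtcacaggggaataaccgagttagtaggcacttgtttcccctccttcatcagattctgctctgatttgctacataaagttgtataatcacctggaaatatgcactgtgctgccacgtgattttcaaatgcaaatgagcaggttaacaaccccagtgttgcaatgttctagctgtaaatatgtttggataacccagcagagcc
HRG (chr3:186665764-186666013, plus strand): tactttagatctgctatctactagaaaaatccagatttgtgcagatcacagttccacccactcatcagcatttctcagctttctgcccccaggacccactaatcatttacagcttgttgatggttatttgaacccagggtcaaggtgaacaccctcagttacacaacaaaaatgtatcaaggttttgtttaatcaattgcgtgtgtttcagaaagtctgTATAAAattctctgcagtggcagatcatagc
PROZ (chr13:113158398-113158647, plus strand): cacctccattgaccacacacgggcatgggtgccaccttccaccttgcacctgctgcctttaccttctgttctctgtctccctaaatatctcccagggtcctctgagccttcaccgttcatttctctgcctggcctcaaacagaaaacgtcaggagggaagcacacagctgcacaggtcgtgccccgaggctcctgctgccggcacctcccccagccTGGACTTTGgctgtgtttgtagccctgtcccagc

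FGB held 3 of the motifs, with the IL6 response motif starting 112 bases, the C/EBP motif 101 bases and the HNF1 core 51 bases before the start. FGA held the C/EBP motif and the HNF1 core (141 and 52 bases before the start), and FGG the IL6 response motif alone (161 bases). KNG1 held a C/EBP match 210 bases before its start. Over the 30 promoters the HNF1 core was found in 6 (20%), against 6.23% of all 35116 promoters of the same length, the C/EBP motif in 6 (20%, against 9.05%), the IL6 response motif in 5 (16.7%, against 9.15%), the TATA box in 3 (10%, against 10.7%) and the HNF4 motif in 1 (3.33%, against 0.325%). No matches of different motifs overlapped, and 14 promoters held none. The 6 genes with the HNF1 core did not share a direction: F13B, FGA and FGB were above the controls, SERPINA10 was below, and F2 and KLKB1 were neither. A match describes the letters and shows no binding.

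**Figure D3:**
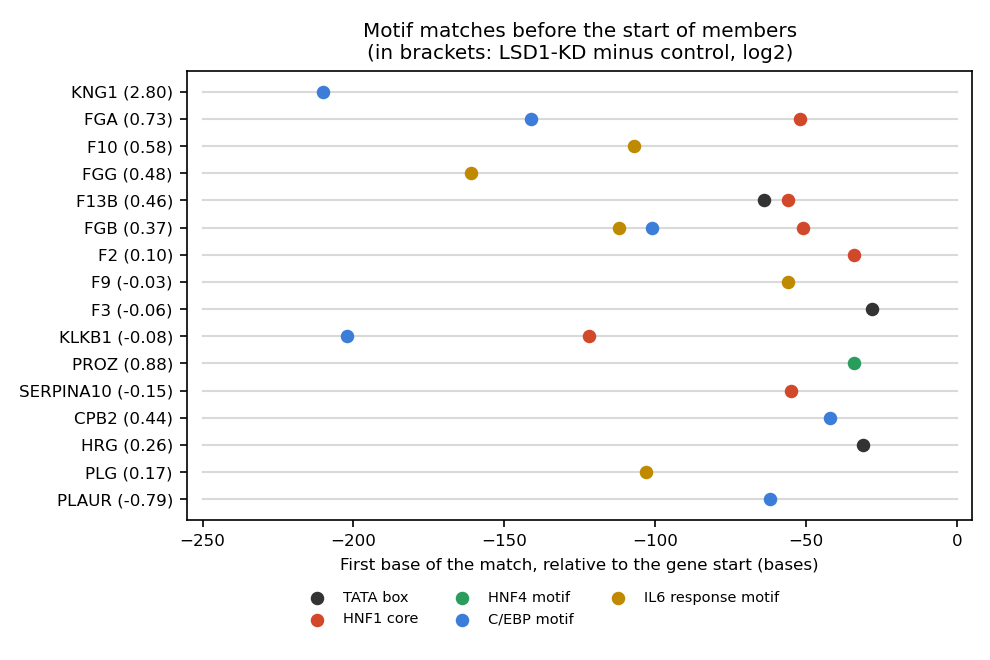
Each row is 1 of the 16 members with a motif match in the 250 bases before its start, and each point marks the first base of a match by its distance from the start in bases. The number after each name is the knockdown minus control difference (log2); motif matches occur in genes with positive and with negative differences.

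The vitamin K cycle genes had small differences. GGCX, the carboxylase that modifies clotting factors, differed by 0.03 ± 0.10 and VKORC1, the warfarin target that recycles vitamin K, by -0.12 ± 0.10. Other GGCX probe sets differed by 0.02 to 0.50. The 7 members that GGCX modifies (F2, F7, F9, F10, PROC, PROS1, PROZ) had a median difference of 0.32 (siRNA-1 alone 0.06, siRNA-2 alone 0.47). Of these 7 genes 4 (57.1%) were above both controls with each siRNA and 0 below, against 23.7% and 25.4% of all genes. The difference was larger in size with siRNA-2 in all 7, against 62.2% of all genes.

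Inhibitors of clotting were mostly higher as well. Of 10 genes 7 lay above both controls with each siRNA and 3 below, with a median difference of 0.37 (70% above and 30% below, against 23.7% and 25.4% of all genes). That median was 0.07 over every probe set, 0.18 without the siRNA-2 array and 0.57 without the siRNA-1 array. SERPINC1 encodes antithrombin, the main plasma inhibitor of thrombin and factor Xa. It read -0.49 and -0.71 on the controls against 0.49 (siRNA-1) and 0.88 (siRNA-2). The groups were clearly apart, with a difference of 1.29 ± 0.18 (2.44-fold, limma adjusted p = 0.174), and its second probe set differed by 1.30.

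SERPINA5, the gene of the protein C inhibitor, read -0.43 and -0.48 on the controls against 0.43 and 1.09, a difference of 1.22 ± 0.25 (2.33-fold, limma adjusted p = 0.218). PROZ, which encodes protein Z, the cofactor of a factor Xa inhibitor, read -0.36 and -0.44 against 0.36 and 0.61, a difference of 0.88 ± 0.13 (limma adjusted p = 0.19). SERPINA10, the gene of that inhibitor, went the other way by a small amount (0.08 and 0.07 on the controls against -0.08 and -0.07 after knockdown). PROC encodes protein C, which inactivates factors Va and VIIIa. It read -0.09 and -0.05 on the controls, 0.05 with siRNA-1 and 0.86 with siRNA-2, so that its difference of 0.52 ± 0.29 came mostly from siRNA-2 (limma adjusted p = 0.472). SERPIND1, the heparin cofactor II gene, had the same shape (-0.03, -0.10, 0.03 and 0.69 in the same order). PROS1, the protein S gene (0.32), and THBD, the thrombomodulin gene (0.19, dim), were higher by smaller amounts.

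The tissue factor pathway inhibitors were lower. TFPI, which blocks the tissue factor and factor VIIa complex, read 0.34 and 0.39 on the controls, -0.65 with siRNA-1 and -0.34 with siRNA-2, a difference of -0.87 ± 0.14 (limma adjusted p = 0.198). Of its 5 probe sets 4 had both knockdown arrays below both controls, with differences from -0.87 to -0.20, and 1 bright probe set differed by 0.13. TFPI2, a related protease inhibitor of the extracellular matrix, differed by -0.45 and, on its second probe set, by -1.33; both of its probe sets were dim.

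Fibrinolysis genes lay on both sides of the controls. Of 7 genes 5 (71.4%, against 23.7% of all genes) were above both controls with each siRNA and 2 (28.6%, against 25.4%) below. The median difference was 0.26, which was 0.14 without control 1 and 0.41 without control 2. SERPINF2 encodes alpha-2-antiplasmin, the fast inhibitor of plasmin. It read -0.46 and -0.49 on the controls, 0.46 with siRNA-1 and 1.81 with siRNA-2, a difference of 1.61 ± 0.47 (3.05-fold, limma adjusted p = 0.287). The siRNA-2 array exceeded the siRNA-1 array by 1.35 ± 0.08 (limma adjusted p = 0.0416). PLG, the plasminogen gene, differed by 0.17 ± 0.12, and CPB2, whose product removes plasminogen-binding lysines from fibrin, by 0.44 ± 0.18.

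The activators of plasminogen were split. PLAT, the tissue-type activator, was read by a dim probe set at -0.67 and -0.13 on the controls against 0.13 and 0.84, a difference of 0.89 ± 0.32 (limma adjusted p = 0.329). PLAU, the urokinase gene, read 0.17 and 0.32 on the controls, -0.17 with siRNA-1 and -0.65 with siRNA-2, a difference of -0.65 ± 0.20 (limma adjusted p = 0.293). PLAUR, the urokinase receptor gene, read 0.15 and 0.46 against -0.15 and -0.84, a difference of -0.79 ± 0.27 (limma adjusted p = 0.32). Urokinase and its receptor were thus both below the controls with each siRNA, while tissue-type activator was above. The other 2 PLAUR probe sets differed by -1.23 and -1.06, and the other PLAU probe set, a dim one, by -0.44.

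With each siRNA tested alone in the model with 3 groups, 0 members passed with siRNA-1 (0% of all genes passed in either direction) and 17 passed with siRNA-2. At an unadjusted p under 0.05, 19 members (55.9%) and 27% of all genes passed with siRNA-1. With siRNA-2, 13 members (38.2%) rose and 4 (11.8%) fell, against 13.7% and 10.4% of all genes. Those that rose were KNG1, F5, F10, F11, F8, FGG, F2, SERPINC1, SERPINA5, SERPIND1, PROC, PROZ and SERPINF2, and those that fell were F12, TFPI, PLAU and PLAUR. The difference between the siRNAs passed for 6 members (17.6%), all higher with siRNA-2: SERPINF2, F10, F8, PROC, F2 and F5. Over all genes it passed for 7.13%, and for 4.18% in the direction of siRNA-2. The difference from control was larger in size with siRNA-2 in 19 of 34 members (55.9%), against 62.2% of all genes. Leaving out the siRNA-1 array from the comparison of knockdown with control gives the siRNA-2 test, and the 0 members past the threshold become 17. With every array's median set to 0, 11 members and 762 of all genes passed with siRNA-1, and in the fit over every probe set the difference between the siRNAs passed for 0.

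**Figure D4:**
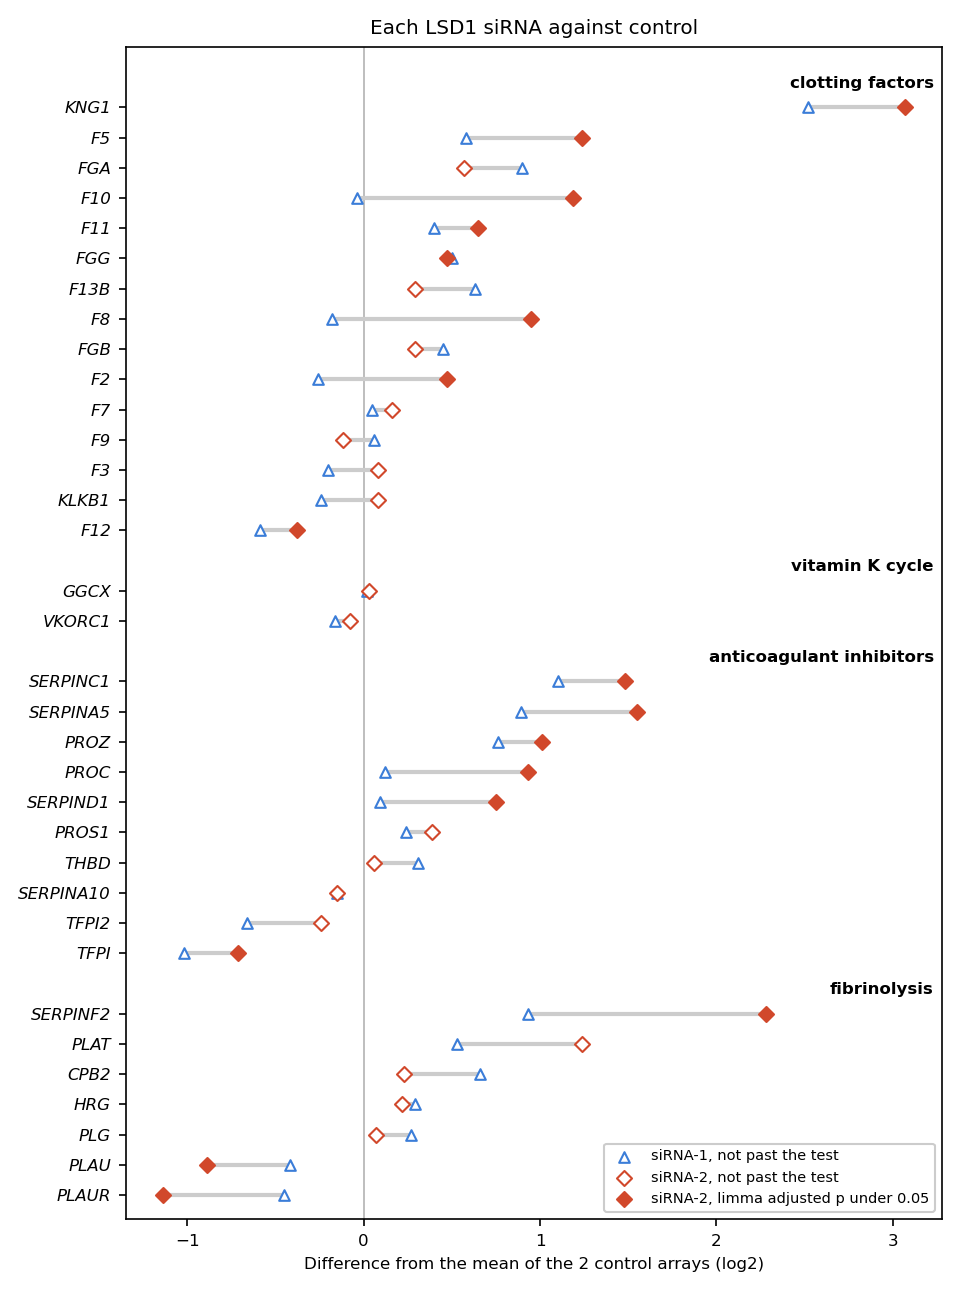
Each row is a gene, and its points give the difference of the siRNA-1 array (triangle) and the siRNA-2 array (diamond) from the mean of the 2 controls (log2); filled points passed limma's test at an adjusted p under 0.05. Only diamonds are filled: 13 to the right of 0 and 4 to the left.

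Of the members, 16 were read by more than 1 probe set, and 30 further probe sets stood beside those used. In 24 of these 30 the difference had the same sign as in the probe set used, and in 14 of 18 that were not dim. Both knockdown arrays lay beyond both controls in the same direction in 16 of the 30, and in the opposite direction in 1. Of all probe sets with 1 gene name, 22% lay above both controls on both knockdown arrays and 26.8% below. In a fit over all 41091 probe sets with 1 gene name, no member probe set passed (lowest limma adjusted p = 0.137).

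**Figure D5:**
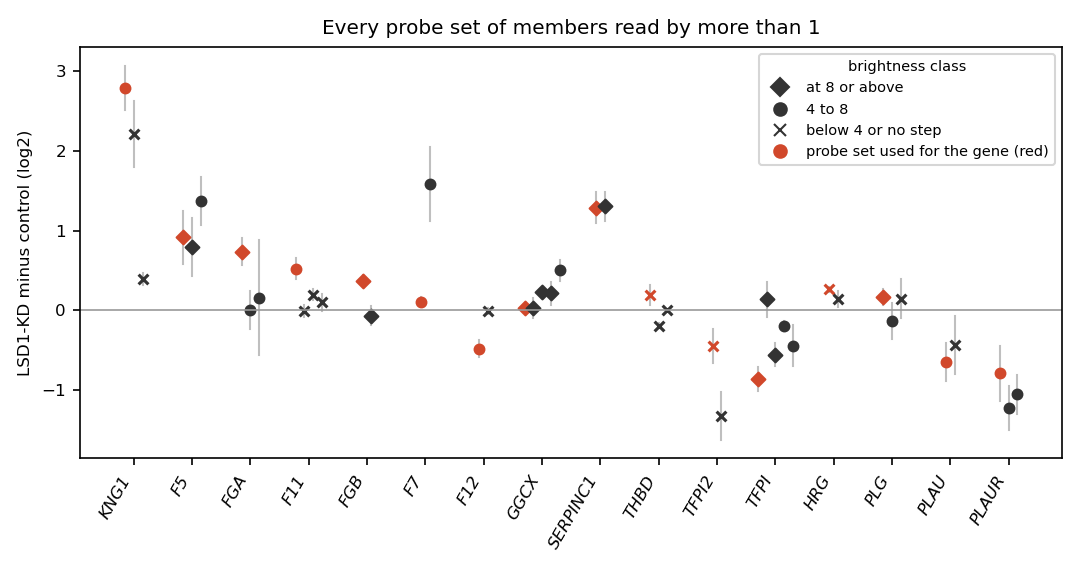
For each gene with several probe sets, points give the knockdown minus control difference (log2), the grey line runs from the siRNA-1 to the siRNA-2 value, the marker shape gives the brightness class and red marks the probe set used. F7 has 1 probe set near 0 and 1 at 1.58, whereas both SERPINC1 probe sets lie near 1.3.

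Further genes of clotting and fibrinolysis lay nearer than the members to the all-gene share above both controls, and farther from the share below. Of 30 in that list 26 were measured; 7 (26.9%) were above both controls with each siRNA, 11 (42.3%) below and 8 neither, against 23.7% and 25.4% of all genes, with a median of -0.10. In the limma test over all genes 0 passed, and 5 (19.2%, against 14.7%) had an unadjusted p under 0.05. With siRNA-2 alone 5 (19.2%, against 13.7%) rose and 4 (15.4%, against 10.4%) fell. SERPING1, the C1 inhibitor that also inhibits factor XIIa and kallikrein, read -0.53 and -0.50 on the controls, 0.50 with siRNA-1 and 1.82 with siRNA-2 on a dim probe set, a difference of 1.67 ± 0.46 (limma adjusted p = 0.269). FGL1, a fibrinogen-like protein of the liver, read -0.22 and -0.33 on the controls against 0.22 and 2.09, a difference of 1.43 ± 0.64 that came mostly from siRNA-2. SERPINE2, a thrombin and urokinase inhibitor bound to cells and matrix, read 0.59 and 0.60 on the controls against -0.59 and -1.13, a difference of -1.45 ± 0.21 (limma adjusted p = 0.177).

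Regulators known to act on clotting factor genes were measured for 15 of 20 listed; 10 (66.7%, against 23.7% of all genes) lay above both controls with each siRNA, 3 (20%, against 25.4%) below and 2 neither, with a median of 0.15. In the limma test 0 passed, and 4 (26.7%, against 14.7%) had an unadjusted p under 0.05. With siRNA-2 alone 6 (40%, against 13.7%) rose and 2 (13.3%, against 10.4%) fell. Of the liver transcription factor genes, FOXA1 differed by 0.59 (0.18 for siRNA-1, 1.01 for siRNA-2), FOXA3 by 0.54 (0.24 and 0.83) and ONECUT1, on a dim probe set, by 0.54 (0.32 and 0.75), with limma adjusted p from 0.317 to 0.437. FOXA2 differed by 0.05 and CEBPA by 0.10. IL6ST, the signalling chain of the IL6 receptor complex, was higher by 0.71 ± 0.13, while IL6R, its ligand-binding chain, differed by -1.22 ± 0.56 (-0.42 with siRNA-1, -2.02 with siRNA-2). NR0B2, a nuclear receptor that represses transcription in liver, differed by -0.76 ± 0.48, nearly all of it with siRNA-2 (-0.07 and -1.46).

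Markers of other cell types were read in the same way, since thrombomodulin, factor VIII and tissue-type activator are also products of endothelium. Of all genes 23.7% were above both controls with each siRNA and 25.4% below. Of 7 endothelial markers 0 were above and 2 (28.6%) below (PECAM1 -0.54, CLDN5 -0.13). Of 6 platelet markers 1 (16.7%) was above and 1 (16.7%) below. Of 5 macrophage and leukocyte markers 3 (60%) were above and 0 below, with CD14, which hepatocytes also make, at 1.31. Of 7 fibroblast and stellate markers 2 (28.6%) were above, COL1A1 at 1.88 and ACTA2 at 1.20, and 1 (14.3%) below, DCN at -0.27. COL1A2 (0.11), COL3A1 (0.01), PDGFRB (-0.27) and LUM (-0.13) were neither. Of the 10 hepatocyte and hepatoma markers 8 (80%) were above and 2 (20%) below, the 2 keratin genes KRT8 (-0.23) and KRT18 (-0.17). The part of any of these in the clotting gene values was not tested.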

How the data were processed

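The deposited values are log2 RMA values made by the authors from HG-U133 Plus 2.0 arrays, per the submitters' processing notes; the log base is taken to be 2, the base RMA gives, and the software version is not given in the sources used here. In every probe set the median of the 4 arrays is 0 (largest deviation 5.0e-07), so levels are lost. Arrays give no counts or depth, and their number limits the precision.

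Of 54675 probe sets, 41097 carried 1 gene symbol, updated by gene identifier, 1801 carried several and were not used, and 11777 are unnamed here. This gave 19775 genes. Since single-precision numbers are spaced more coarsely the larger they are, the spacing left in the centred values (tolerance 0.1 of a step) gave a brightness class. The bright class (8 or above) held 22% of probe sets, the middle class (4 to 8) 37.6% and the dim class (below 4) 38.8%; 1.61% had no class. Each gene was read by its probe set of the brightest class, then by one without a letter suffix, then by identifier.

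For knockdown against control, 2 arrays each, limma 3.58.1 (R 4.3.3) fitted every gene, with empirical Bayes moderation, two-sided tests and Benjamini-Hochberg adjustment over all genes (threshold 0.05). The siRNAs were compared in a model with 3 groups. Errors are standard errors of the fit. The scripts were tested on simulated data. Replicate numbers were not taken to pair the arrays: the deviations of same-numbered arrays correlated at 0.0345 across genes. The members, lists and tests were chosen with earlier results of these data known. Genes were named with their values where they lay beyond both controls with each siRNA and differed by at least 0.5 (members and regulators) or 1 (other pathway genes), with each array's value for members and pathway genes. F7, F8, F10, F12, F2, FGB, FGG, HRG, SERPINA10 and SERPIND1 were given so, and FOXA2 and CEBPA named, after their values were seen. The alternatives were the choice of probe set, dim genes, array medians, moderation, the replicate block and leaving out each array.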

Additional observations from a re-analysis of the deposited data

Results flagged for a closer look

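For 6 genes the siRNA-1 and siRNA-2 effects differed by limma's test of the difference itself, in the model whose spread comes from the 2 controls. The difference of siRNA-2 from siRNA-1 was 1.35 for SERPINF2, 1.24 for F10, 1.13 for F8, 0.81 for PROC, 0.73 for F2 and 0.66 for F5, with adjusted p from 0.0416 to 0.0482. In SERPINF2 and F5 both siRNAs lay above the controls, whereas F10, F8 and F2 lay above them with siRNA-2 only. PROC differed from the control mean by 0.12 with siRNA-1 and by 0.93 with siRNA-2. The fit over every probe set called 0 of these differences, and 7.13% of all genes had one.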

How the results depend on the processing

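With 2 arrays a group the number of arrays limits the precision, and dim probe sets read 8 of the members. The number of members past the threshold for knockdown against control was 0 in the fit reported and in every alternative but 2: it was 18 with the siRNAs as separate groups, and 0 to 17 when each array was left out, with 17 without the siRNA-1 array. Over all genes the number past the threshold was 1 in the fit reported. It was also far higher with the siRNAs as separate groups and without the siRNA-1 array. The rise to 18 and 17 was therefore not confined to the members. Both settings take their spread from the 2 controls alone. The all-gene shares of the siRNA-2 test stand beside the 17 in the Results. With the replicate block 0 members passed, and 0 of all genes. The numbers share no stated meaning, and the block changed no other member call. The count above both controls was lowest without probe sets with a letter suffix, at 14 of 26 members (22.8% of all genes). It was highest over every probe set, at 30 of 64 member probe sets (22% of all). Leaving out each array it was 21 to 25 of 34, against 31.7% to 40.4% of all genes. The count below was 15 of 64 over every probe set (26.8% of all). It was 7 to 11 of 34 when each array was left out, against 33.9% to 44.6% of all genes.

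The median over all members was 0.25 with the mean of a gene's probe sets and 0.15 over every probe set. It was 0.14 without probe sets with a letter suffix (26 members left), and 0.18 to 0.38 when each array was left out. That of the clotting factors was 0.10 without suffixed probe sets (13 genes left), and 0.06 to 0.47 leaving out each array. That of the vitamin K cycle was 0.04 with the mean of probe sets and 0.12 over every probe set. It was 0.03 without suffixed ones (1 gene left), and -0.07 to -0.02 leaving out each array. That of the inhibitors was 0.07 over every probe set, and 0.18 to 0.57 leaving out each array. That of fibrinolysis was 0.20 with the mean of probe sets, 0.17 without dim genes and 0.14 over every probe set, and 0.14 to 0.41 leaving out each array.

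In alternatives added after the data were seen, members past the threshold with siRNA-1 were 4 without dim genes (405 of all genes) and 11 with array medians set to 0 (762). With siRNA-2 they were 11 without suffixed probe sets (3268) and 27 over every probe set (7953 probe sets). For the difference between siRNAs they were 11 with the mean of probe sets (2108), 2 without suffixed probe sets (733) and 0 over every probe set (0). The cause of these changes was not tested.

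Of 358 values of single members under alternatives 312 kept direction and side of the threshold, 35 passed it and 11 changed sign. Without suffixed probe sets F11 was -0.01 and FGA -0.00, and THBD was -0.00 with the mean of probe sets. Without the siRNA-2 array F2 was -0.26, F8 -0.18, F9 0.06 and F10 -0.04; without the siRNA-1 array F3 was 0.08 and KLKB1 0.08; without control 1 F9 was 0.09 and KLKB1 0.24. Leaving out each array, the opposite ends of these ranges were -0.20 for F3, 0.95 for F8, -0.16 for F9, 1.19 for F10 and -0.40 for KLKB1. The adjusted p of KDM1A ran from 0.0152 to 0.999.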

Other observations

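Some further genes of the pathway differed between the siRNAs, and they are named after their values were seen. LMAN1, the cargo receptor that carries factors V and VIII out of the endoplasmic reticulum, differed from the control mean by 0.10 with siRNA-1 and -1.06 with siRNA-2 (difference -1.16 ± 0.09, limma adjusted p = 0.0416). F2RL2, the protease-activated receptor gene also called PAR3, departed from the control mean mainly with siRNA-1. It was at 2.47 with siRNA-1 and -0.19 with siRNA-2 (difference -2.66 ± 0.11), on 1 of its 2 probe sets. C4BPB, a chain of the plasma protein that carries protein S, read 0.08 and -0.84 (difference -0.92 ± 0.08, limma adjusted p = 0.0416). THBS1, thrombospondin, which is stored in platelet granules, differed from the control mean by 0.31 with siRNA-1 and 1.58 with siRNA-2.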
